A study of Mus musculus with 7 samples.

Results

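Elastic fiber genes comprised elastin (Eln), the fibrillins Fbn1 and Fbn2, the fibulins Fbln1, Fbln2, Fbln5, Efemp1 (fibulin-3) and Efemp2 (fibulin-4), and the microfibril-associated genes Mfap4 and Mfap5. They were chosen by name as structural genes of the elastic fiber, not by a cut on their measured values, although earlier results of these data were known. All 10 were found among the 55450 genes of the count table, and all 10 were among the 17959 genes tested. Expression was measured by bulk RNA sequencing of dorsal skin from 7 male C57BL/6 mice aged 24 months, with 1 library per mouse. Mice 476, 477 and 478 received topical ABT-263 at 5 μM for 5 days, and mice 480, 481, 482 and 483 received the vehicle DMSO alone for the same time. ABT-263 (navitoclax) inhibits anti-apoptotic proteins of the Bcl-2 family and is used to remove senescent cells. In both groups the back was cleared of hair with clippers and Nair lotion, cleaned with ethanol, treated daily and kept under a semi-occlusive dressing. The skin was whole and not sorted, so the signal of each gene is a sum over all of its cell types, and fewer cells of a type cannot be told apart from less RNA per cell.

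Elastic fibers give skin its recoil. They are built by dermal fibroblasts and by smooth muscle cells around a core of cross-linked elastin, laid down on a scaffold of fibrillin microfibrils. Fibulins bind both elastin and fibrillin, and several of them carry the lysyl oxidase enzymes that cross-link the elastin monomer to the growing fiber. Most dermal elastin is deposited early in life and persists for long, and loss and fragmentation of the fibers are features of aged skin.

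Between 20344364 and 43562330 read pairs were counted per library, and depth moved with treatment: the smallest ABT-263 library (27325963) exceeded the largest DMSO library (26824123). Normalized expression is given below as CPM, the counts scaled to a common library size. All 9 marker lists for cells of the skin were detected. Dermal fibroblast markers summed to 1862 to 2672 CPM after DMSO and 3000 to 4856 CPM after ABT-263, and 3 of 8 passed edgeR's test as higher (adjusted p-value under 0.05). Of all genes tested, 12.4% passed it as higher and 11.7% as lower. Smooth muscle and pericyte markers overlapped between groups, at 376 to 513 CPM after DMSO and 467 to 645 CPM after ABT-263. Markers of endothelium (5 of 5 higher), macrophages (4 of 4) and neutrophils (2 of 4) were higher after ABT-263, and 2 of 5 skeletal muscle markers were lower. Keratinocyte, hair follicle and adipocyte sums overlapped between the groups. DMSO mouse 481 stood apart with hair follicle keratins at 2058 CPM, against 8.91 to 11.2 CPM in the other DMSO mice.

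Of the 10 elastic fiber genes, 9 had a positive log2 fold change (9000 of 17959 over all genes tested), and 4 passed edgeR's test. Fbn1, Fbln2, Fbln5 and Efemp2 rose after ABT-263, between 2.02-fold and 4.04-fold, and none fell. The other 6 did not pass the test, among them Eln itself, with a log2 fold change of 0.14, and Fbn2, which had the only negative value (-0.81). By edgeR's quasi-likelihood test with an adjusted p-value under 0.05 as the threshold, 4 of 10 were thus higher, where 12.4% of all genes tested were, and 0 of 10 were lower, where 11.7% of all genes tested were. At an unadjusted p-value under 0.05, 6 were higher and 1 was lower, where 20.6% and 19.5% of all genes tested were. The DESeq2 Wald test called 5 higher and 0 lower, against 13.6% and 12.3% of the 21822 genes to which it gave an adjusted p-value. All ABT-263 mice lay above all DMSO mice for 5 of the 10 genes (18.7% of all genes tested) and below them for 0 of 10 (18.4%). The median log2 fold change was 0.63 over the 10 genes and 0.00 over all genes tested. DMSO mouse 481 had the lowest DMSO value for 9 of the 10 genes, and ABT-263 mouse 478 had the highest ABT-263 value for 8 of the 10. The number of elastic fiber genes called higher was 2 when mouse 482, 483, 476 or 478 was left out, and the share of all genes called higher was then 4.80%, 5.58%, 6.01% and 5.22%. It was 4 without mouse 480 or 477 (11.6% and 12.3% of all genes) and 3 without mouse 481 (7.95%). When mice 481 and 478 were both left out, a choice made after the values were seen, edgeR called 0 of the 10 and 0 of all genes. Without that pair, 4 of the 10 had an unadjusted edgeR p-value under 0.05, as had 5185 of the 18170 genes then tested. DESeq2 then called 4 of the 10, and 2876 of the 29159 genes to which it gave a p-value. This total includes genes without an adjusted p-value, unlike the 21822 above, so the shares are not comparable.

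**Figure D1:**
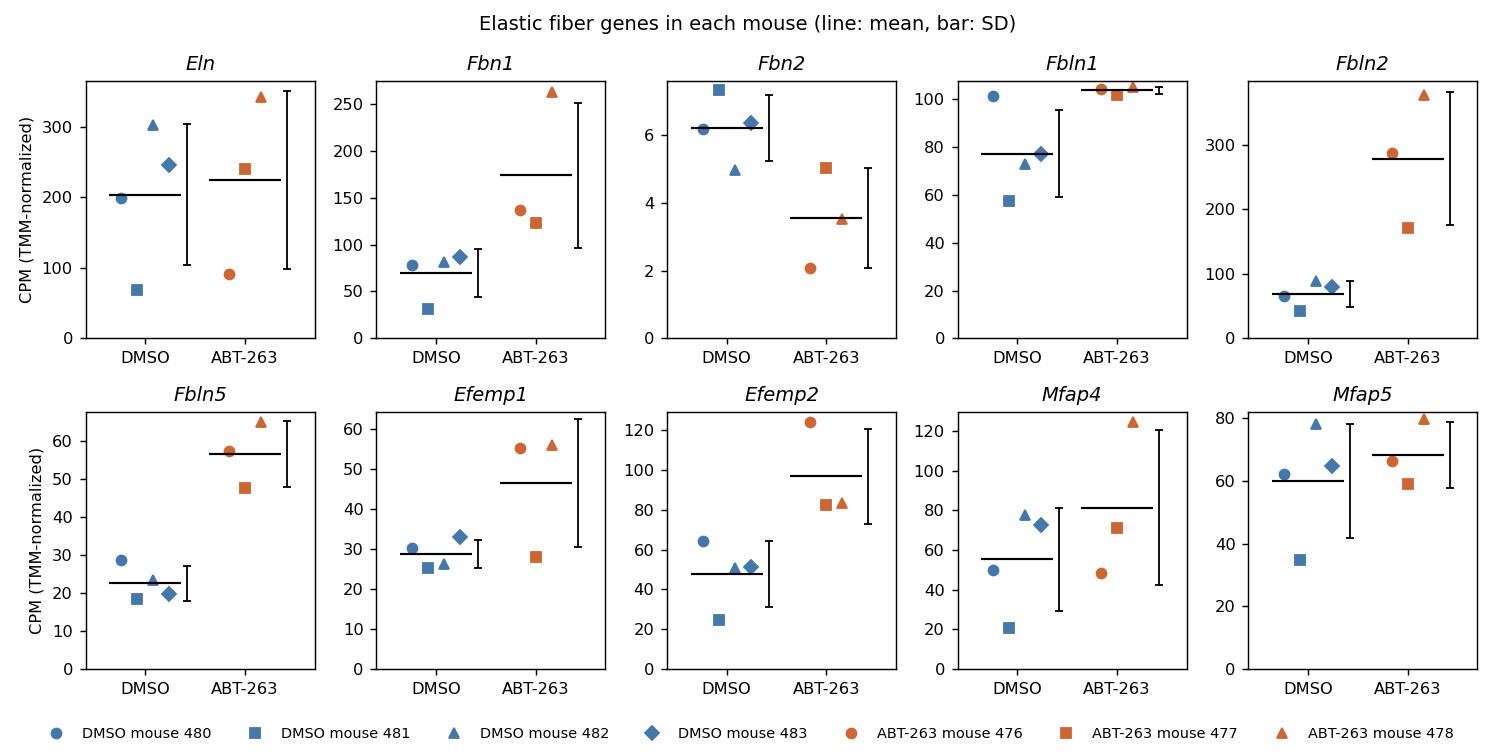
Normalized expression (CPM, linear axis from 0) of the 10 elastic fiber genes in each mouse, with 4 DMSO mice in blue and 3 ABT-263 mice in orange, the line at the group mean and the bar showing ± 1 SD. For Fbn1, Fbln1, Fbln2, Fbln5 and Efemp2 every ABT-263 mouse lies above every DMSO mouse, while Eln, Fbn2, Efemp1, Mfap4 and Mfap5 overlap between the groups.

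Elastin is the core protein of the fiber. Eln (chr5:134702593-134747323, minus strand) was expressed at 199, 68.3, 302 and 246 CPM in DMSO mice 480 to 483 and at 91.8, 240.3 and 342 CPM in ABT-263 mice 476 to 478. Low and high values occurred in both groups: mice 481 and 476 were low, mice 482 and 478 were high, and the groups overlapped. The log2 fold change was 0.14 ± 0.55 (SE; edgeR adjusted p = 0.873), with a 95% interval from -1.15 to 1.43, so changes of more than 2-fold in either direction lie within it. The sign depended on single mice, since the log2 fold change was -0.15 without mouse 481 and -0.29 without mouse 478.

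The fibrillins form the microfibril scaffold. Fbn1 encodes the main fibrillin of postnatal tissue, and Fbn2 encodes a fibrillin known mostly from development. Fbn1 (chr2:125300594-125507993, minus strand) was expressed at 78.4, 31.9, 81.9 and 87.1 CPM in DMSO mice 480 to 483 and at 137, 123 and 263 CPM in ABT-263 mice 476 to 478. Every ABT-263 mouse lay above every DMSO mouse, with mouse 478 the highest and mouse 481 the lowest. Fbn1 was 2.50-fold higher after ABT-263 (log2 fold change 1.32 ± 0.39 SE, edgeR adjusted p = 0.0446). This call was close to the threshold: with any single mouse other than mouse 477 left out, the edgeR adjusted p-value was 0.0501 to 0.146, and without mouse 478 the log2 fold change was 0.90. An antisense gene, Gm9913, overlaps 20.1% of the exon bases of Fbn1 on the other strand, and reads were counted by strand.

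Fbn2 (chr18:58008623-58210487, minus strand) was far lower, at 6.18, 7.33, 4.98 and 6.37 CPM in DMSO mice 480 to 483 and 2.07, 5.04 and 3.52 CPM in ABT-263 mice 476 to 478. These levels rest on 97 to 174 read pairs per DMSO library and 58 to 200 per ABT-263 library. Values were lower in ABT-263 mice except for mouse 477, which lay just above DMSO mouse 482. The log2 fold change was -0.81 ± 0.31 (SE, edgeR adjusted p = 0.0933), and it was -1.13 (edgeR adjusted p = 0.0408) when mouse 477 was left out.

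Fibulins connect elastin with the microfibrils, and 5 of the 10 genes, with 3 of the 4 that rose, encode fibulins. The family members Fbln7 and Hmcn1 (fibulin-6) were listed among the assembly partners, and neither passed the test. Their log2 fold changes were 0.74 and -0.54 (edgeR adjusted p = 0.276 and 0.228). Fbln2 (chr6:91212455-91272540, plus strand), a fibulin that binds fibrillin and elastin, had the largest change of the 10 genes. It was expressed at 65.4, 42.5, 88.4 and 79.5 CPM in DMSO mice 480 to 483 and at 287, 171 and 378 CPM in ABT-263 mice 476 to 478. The lowest ABT-263 mouse was well above the highest DMSO mouse. Fbln2 was 4.04-fold higher (log2 fold change 2.02 ± 0.32 SE, edgeR adjusted p = 0.00818), and its log2 fold change stayed between 1.74 and 2.29, past the threshold, in all 7 fits that each lacked 1 mouse.

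Fbln5 (chr12:101746565-101819055, minus strand) encodes fibulin-5, which binds elastin and is needed to assemble elastic fibers. It was expressed at 28.6, 18.5, 23.5 and 19.7 CPM in DMSO mice 480 to 483 and at 57.2, 47.6 and 64.8 CPM in ABT-263 mice 476 to 478. The groups were clearly separate, and neither contained a mouse far from the others. Fbln5 was 2.50-fold higher (log2 fold change 1.32 ± 0.18 SE, edgeR adjusted p = 0.00628), with a 95% interval of 0.90 to 1.74 on the log2 scale, and it passed in all 7 fits that each lacked 1 mouse.

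Efemp2 (chr19:5473954-5482517, plus strand) encodes fibulin-4, which brings lysyl oxidase to elastin. It was expressed at 64.5, 24.7, 50.9 and 51.2 CPM in DMSO mice 480 to 483 and at 124, 82.5 and 83.6 CPM in ABT-263 mice 476 to 478. All ABT-263 mice were higher than all DMSO mice, and mouse 476 was the highest. Efemp2 was 2.02-fold higher (log2 fold change 1.02 ± 0.31 SE, edgeR adjusted p = 0.0463). As for Fbn1, this call was close to the threshold: without mouse 482, 483, 476, 477 or 478 the edgeR adjusted p-value was 0.0649 to 0.147, and the log2 fold change stayed between 0.80 and 1.15.

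Efemp1 (chr11:28853204-28926743, plus strand) encodes fibulin-3, a relative of fibulin-4 found in elastic tissues of the dermis and fascia. It was expressed at 30.3, 25.4, 26.2 and 32.9 CPM in DMSO mice 480 to 483 and at 55.3, 28.1 and 56.1 CPM in ABT-263 mice 476 to 478. Mice 476 and 478 were above every DMSO mouse, while mouse 477 lay among them. The log2 fold change was 0.70 ± 0.24 (SE, edgeR adjusted p = 0.0671). It was 0.98 (edgeR adjusted p = 0.00982) without mouse 477, and the DESeq2 Wald test gave 0.71 with an adjusted p-value of 0.0480.

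Fbln1 (chr15:85205949-85286535, plus strand) encodes fibulin-1, a component of basement membranes and of the elastin core. Its values were 101.6, 57.3, 73.1 and 77.3 CPM in DMSO mice 480 to 483 and 104.3, 102.1 and 105 CPM in ABT-263 mice 476 to 478. The ABT-263 mice were nearly level with each other and all above the DMSO mice, but DMSO mouse 480 lay just beneath them. The log2 fold change was 0.42 ± 0.19 (SE, edgeR adjusted p = 0.125), and without mouse 480 it was 0.58 (edgeR adjusted p = 0.0307).

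The sequences just upstream of the fibulin genes are shown for Fbln5 and Efemp2, which rose, and for Fbln1, which did not pass the test. They are the 250 bases before the RefSeq transcript start (build GRCm38.p6, on the gene's strand, 5′ to 3′), and capitals mark GC boxes (GGGCGG, or CCGCCC on the other strand) and CCAAT boxes. Fbln5 and Fbln1 had 2 RefSeq windows each and Efemp2 had 3. Here and over all genes, only the most upstream window of a gene was used, and its other windows were not examined. The Fbln5 window is chr12:101819120-101819369, minus strand, the Efemp2 window is chr19:5473696-5473945, plus strand, and the Fbln1 window is chr15:85205699-85205948, plus strand.
Fbln5: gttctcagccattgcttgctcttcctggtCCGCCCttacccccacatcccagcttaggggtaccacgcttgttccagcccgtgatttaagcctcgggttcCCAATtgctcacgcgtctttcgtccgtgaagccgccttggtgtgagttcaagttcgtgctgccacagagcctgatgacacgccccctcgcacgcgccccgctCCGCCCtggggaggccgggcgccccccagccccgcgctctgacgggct
Efemp2: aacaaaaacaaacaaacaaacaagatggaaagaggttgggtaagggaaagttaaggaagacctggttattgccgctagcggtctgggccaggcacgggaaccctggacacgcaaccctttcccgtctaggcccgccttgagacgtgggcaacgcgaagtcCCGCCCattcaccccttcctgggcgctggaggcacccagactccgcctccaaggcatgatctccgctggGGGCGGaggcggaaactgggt
Fbln1: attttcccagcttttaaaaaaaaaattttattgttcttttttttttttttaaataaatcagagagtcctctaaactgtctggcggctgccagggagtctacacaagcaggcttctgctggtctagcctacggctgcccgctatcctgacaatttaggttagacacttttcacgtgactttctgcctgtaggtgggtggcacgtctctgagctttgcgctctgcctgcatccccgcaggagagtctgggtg
A window was held by the RefSeq table for 6 of the 10 genes, namely Fbn1, Fbln1, Fbln2, Fbln5, Efemp1 and Efemp2. A GC box was present in 5 of these 6, in all but Fbln1, and in 33.0% of the 27025 promoter windows of the table. Efemp1, which did not pass edgeR's test, was among the 5. The 5 windows held 53.6% to 65.2% G and C and that of Fbln1 46.4%, with a median of 52% over all windows. A CCAAT box was present in that of Fbln5 alone, against 34.5% of all windows, and the AP-1 element TGANTCA in that of Efemp1 alone, against 6.85%. None of the 6 windows held a TATA box (TATAAA, 13.0% of all), the palindromic SMAD element GTCTAGAC (0.174%) or a CArG box (1.41%). Matches were counted on both strands and describe letters, not binding. Windows of Fbn1 and Fbln2, both counted with a GC box, lie within annotated exons and are not printed.

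Mfap4 and Mfap5 encode small glycoproteins of the microfibril: MFAP4 binds elastin and fibrillin-1, and MFAP5 (MAGP-2) binds fibrillins. Mfap4 (chr11:61485431-61488900, plus strand) was expressed at 50.1, 20.7, 77.8 and 72.7 CPM in DMSO mice 480 to 483 and at 48.6, 71.2 and 124 CPM in ABT-263 mice 476 to 478. The groups overlapped, and mouse 478 alone lay above the DMSO range. The log2 fold change of Mfap4 was 0.56 ± 0.47 (SE, edgeR adjusted p = 0.415). Mfap5 (chr6:122505845-122529290, plus strand) was expressed at 62.2, 34.7, 78.0 and 64.6 CPM in DMSO mice 480 to 483 and at 66.2, 58.8 and 79.6 CPM in ABT-263 mice 476 to 478. Apart from the low mouse 481, both groups covered nearly the same range. Its log2 fold change was 0.19 ± 0.26 (SE, edgeR adjusted p = 0.618), and -0.01 without mouse 481.

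**Figure D2:**
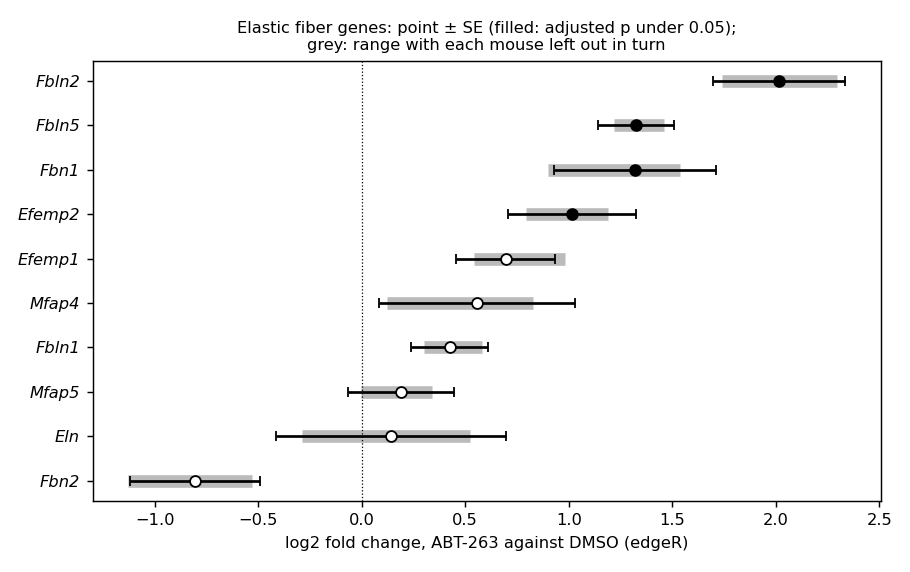
log2 fold change of each elastic fiber gene (ABT-263 against DMSO, edgeR, 3 against 4 mice), with the point and line showing the value ± SE, filled points an adjusted p-value under 0.05 and grey bands the range with each mouse left out in turn. Fbln2, Fbln5, Fbn1 and Efemp2 are filled at 1.02 to 2.02 with bands to the right of 0, and the bands of Eln and Mfap5 cross 0.

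The balance between elastic fiber genes was compared by the log2 ratio of their read counts within each library, which does not depend on library normalization. There were 6 such ratios, and 0.0286 is the smallest p-value that exact permutation of 7 mice in groups of 4 and 3 allows. The ratio of Fbn2 to Fbn1 was -3.66, -2.12, -4.04 and -3.77 in DMSO mice 480 to 483 and -6.04, -4.61 and -6.22 in ABT-263 mice 476 to 478. Every ABT-263 mouse was thus lower, by 2.22 on average (exact two-sided permutation test, p = 0.0286, adjusted p = 0.0571). Elastin relative to Fbn1 was 1.34, 1.10, 1.88 and 1.495 after DMSO and -0.57, 0.97 and 0.38 after ABT-263, again lower in each ABT-263 mouse, with a mean difference of -1.197 (exact p = 0.0286, adjusted p = 0.0571). Fbln2 relative to Fbln1 was -0.64, -0.43, 0.27 and 0.04 after DMSO and 1.46, 0.75 and 1.85 after ABT-263, higher in each ABT-263 mouse by 1.54 on average (exact p = 0.0286, adjusted p = 0.0571). These 3 differences reached the smallest p-value the design allows, and none had an adjusted p-value under 0.05. With only 3 of the 6 ratios at that limit, an adjusted p-value under 0.05 could not be reached, whatever the size of the differences. The ratios of Mfap5 to Mfap4, Efemp1 to Efemp2 and Fbln5 to Eln overlapped between the groups, with mean differences of -0.38, -0.44 and 1.19 (exact permutation p = 0.343, 0.343 and 0.2).

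**Figure D3:**
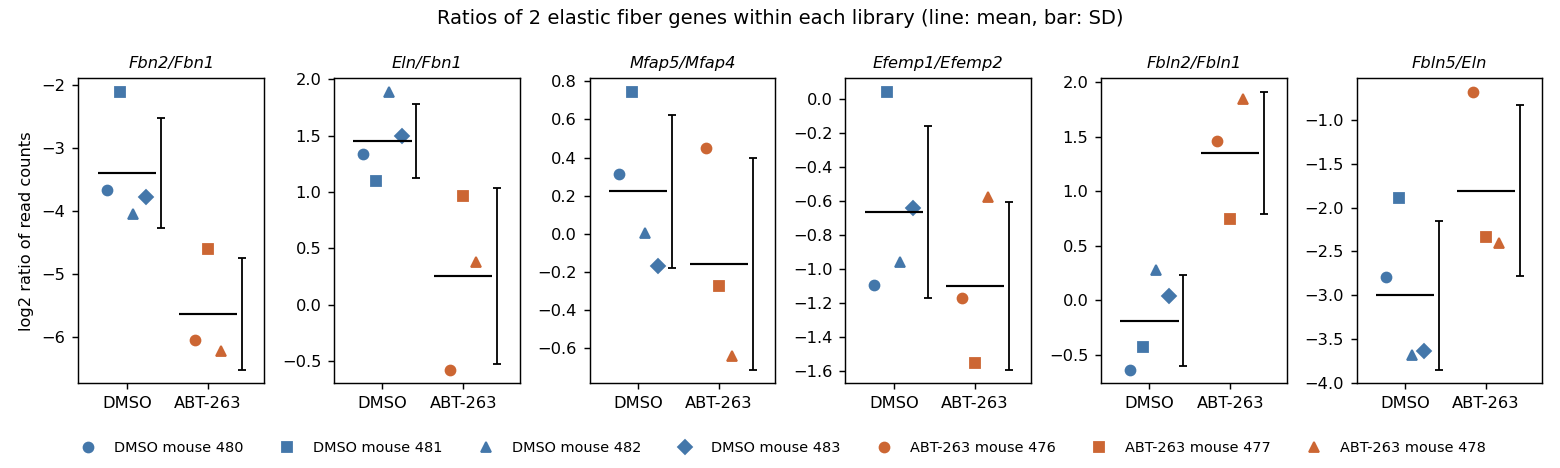
log2 ratio of the read counts of 2 elastic fiber genes within each library (each panel with its own axis), with DMSO mice in blue, ABT-263 mice in orange, lines at group means and bars of ± 1 SD. Fbn2/Fbn1 and Eln/Fbn1 are lower and Fbln2/Fbln1 is higher in all 3 ABT-263 mice than in all 4 DMSO mice, while the other 3 ratios overlap.

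Each gene was also set against the summed counts of the 8 dermal fibroblast markers of the same library, a sum that did not overlap between the groups although only Pdgfra, Lum and Col1a2 of the 8 passed the edgeR test. Col1a2, a chain of type I collagen, made up 58.3% of the sum after DMSO and 64.2% after ABT-263, so these ratios are largely ratios to that gene. On this log2 scale Fbln2 was higher by 1.32 and Fbln5 by 0.66 on average, and Fbn2 was lower, with a difference of -1.56. For these 3 genes the groups did not overlap (exact two-sided permutation test, p = 0.0286, adjusted p over the 10 genes 0.0952). With only 3 of the 10 genes at the smallest possible p-value, an adjusted p-value under 0.05 could again not be reached. Fbn1 differed by 0.67 with groups that did not overlap (exact p = 0.114, adjusted p = 0.229), and Efemp2 by 0.40 with groups that did (exact p = 0.371). Mfap5 and Eln had differences of -0.43 and -0.53 (exact p = 0.114 and 0.343). Fbln1, Mfap4 and Efemp1 lay at -0.21, -0.05 and -0.03, with overlapping groups. Endothelial, macrophage and neutrophil markers moved with the same groups. Skeletal muscle markers moved in the other direction, with sums of 28769 to 60062 CPM after DMSO and 18549 to 27021 CPM after ABT-263. The part of these cell types in the levels of the elastic fiber genes was not tested.

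Levels were compared between genes per kilobase of exon, with the exons of all annotated transcripts of a gene merged. The order depends on this length, which can exceed that of the transcripts expressed. In DMSO mice the order of the means was Mfap4 (28.8 ± 13.5 CPM per kilobase, SD, n = 4), Eln (25.1 ± 12.3), Fbln1 (17.7 ± 4.2), Mfap5 (16.7 ± 5.07), Efemp1 (14.1 ± 1.74), Efemp2 (12.6 ± 4.4), Fbln2 (10.8 ± 3.15), Fbn1 (5.76 ± 2.11), Fbln5 (3.27 ± 0.66) and Fbn2 (0.47 ± 0.07). Neighbours in this order overlapped in range, except Fbln5 and Fbn2. In ABT-263 mice the mean of Fbln2 moved from rank 7 to rank 1, at 43.8 ± 16.3 CPM per kilobase (SD, n = 3). Next came Mfap4 at 42.3 ± 20.3, Eln at 27.8 ± 15.6, Efemp2 at 25.5 ± 6.26, Fbln1 at 23.8 ± 0.351, Efemp1 at 22.8 ± 7.81 and Mfap5 at 19.0 ± 2.94. Fbln2 was above Mfap4 in mouse 476 alone (45.1 against 25.3). It was below Mfap4 in mice 477 (26.9 against 37.0) and 478 (59.3 against 64.7). The last ranks were unchanged, with Fbn1 at 14.4 ± 6.37, Fbln5 at 8.18 ± 1.25 and Fbn2 at 0.268 ± 0.112. There the ranges of neighbours were separate only between Fbn1 and Fbln5 and between Fbln5 and Fbn2.

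**Figure D4:**
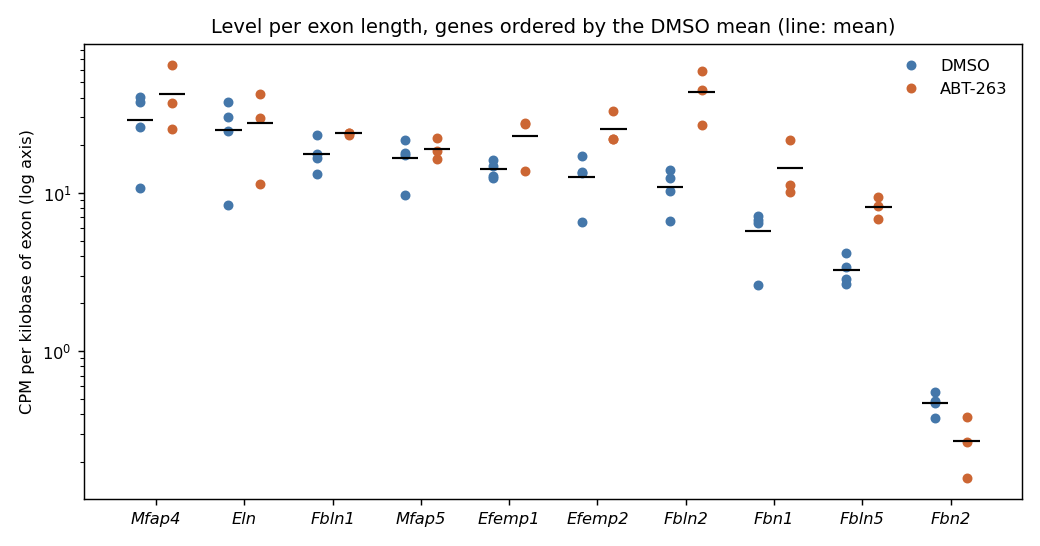
Expression of the elastic fiber genes in CPM per kilobase of exon (log axis) in 4 DMSO mice (blue) and 3 ABT-263 mice (orange), ordered by the DMSO mean, with lines at the means. Fbln2 goes from a DMSO mean of 10.8 to an ABT-263 mean of 43.8, the highest mean of the 10, but lies above Mfap4 in 1 of 3 ABT-263 mice. Fbn2 lies lowest in both groups.

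The genes that build and break down the fiber with these 10 were read from the same edgeR fit. Over all genes tested, 12.4% were higher and 11.7% lower in that fit. The shares were 20.6% and 19.5% at an unadjusted p-value under 0.05, and 13.6% and 12.3% by DESeq2. Enzymes of the lysyl oxidase family, which cross-link elastin, were all positive, with a median log2 fold change of 1.64 over 5 genes. Lox, the main enzyme of the family, rose: it lay between 21.2 and 46.2 CPM after DMSO and between 79.3 and 146 CPM after ABT-263 (log2 fold change 1.64 ± 0.30 SE, edgeR adjusted p = 0.0111). Loxl4 rose by 1.80 ± 0.41 on the log2 scale (edgeR adjusted p = 0.0198) at a low level, 0.674 to 1.80 CPM after DMSO and 2.57 to 6.26 CPM after ABT-263. Loxl1, which is linked to elastic fiber upkeep, had no overlap between the groups but did not pass edgeR's test (0.90 ± 0.33, edgeR adjusted p = 0.0845). The DESeq2 Wald test gave Loxl1 0.91 with an adjusted p-value of 0.0445. Hence 2 of 5 were higher and 0 lower, with 4 higher and 0 lower at an unadjusted p-value under 0.05 and by DESeq2. One was higher, Lox, when mouse 482, 483, 476 or 478 was left out.

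Among partners of microfibrils and of fiber assembly, 4 of the 19 tested were higher and 0 lower, where 12.4% and 11.7% of all genes tested were. At an unadjusted p-value under 0.05, 5 were higher and 0 lower, where 20.6% and 19.5% of all genes tested were. DESeq2 called 4 higher and 0 lower, where it called 13.6% and 12.3% of genes. The median log2 fold change of the 19 was 0.24. Emilin1 and Emilin2 encode glycoproteins at the border of elastin and microfibrils. Emilin1 lay between 11.2 and 16.8 CPM after DMSO and between 27.5 and 78.7 CPM after ABT-263, a rise of 1.79 ± 0.33 on the log2 scale (SE, edgeR adjusted p = 0.0116). Emilin2 rose by 1.18 ± 0.29 (edgeR adjusted p = 0.0263). The proteoglycan genes Vcan, whose product binds fibrillin and fibulins, and Bgn, whose product binds elastin, rose by 1.55 ± 0.27 and 1.19 ± 0.32 (edgeR adjusted p = 0.00987 and 0.0318). Mfap2, which encodes the microfibril protein MAGP-1, and Ltbp4, which encodes a binding protein for latent TGF-β that also takes part in elastin assembly, did not pass the test (0.24 ± 0.28 and 0.38 ± 0.23, edgeR adjusted p = 0.549 and 0.241). Emilin1 and Vcan passed whichever mouse was left out, whereas Emilin2 and Bgn did not without mouse 482, 483 or 478 (edgeR adjusted p = 0.0576 to 0.0934), nor without mouse 476 (0.0607 and 0.0851).

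Of proteases known to cleave elastin or proteins bound to it, 5 of the 8 tested were higher and 0 lower (12.4% and 11.7% of all genes tested). At an unadjusted p-value under 0.05, 6 were higher and 0 lower (20.6% and 19.5% of all genes tested). The median log2 fold change of the 8 was 1.13. DESeq2 called 4 higher and 0 lower, namely Mmp2, Ctsk, Ctss and a further gene, Ctsl (named after its value was seen). For Mmp9 and Mmp12 it gave no p-value, adjusted or unadjusted. Mmp12 (macrophage elastase) was listed at 3.89, 3.58, 2.77 and 2.01 CPM in DMSO mice 480 to 483 and at 108, 6.02 and 8.38 CPM in ABT-263 mice 476 to 478. All ABT-263 mice were above the DMSO mice, but mouse 476 was far above the others. Its log2 fold change of 3.73 ± 1.01 (edgeR adjusted p = 0.0362) was 1.24 without mouse 476, and it did not pass the threshold without any one of the DMSO mice (edgeR adjusted p = 0.0661 to 0.0850) or with limma on the variance-stabilized values (2.33, adjusted p = 0.0881). Mmp9 (gelatinase B) had the same high mouse, with 316 CPM in mouse 476 against 39.3 and 35.7 CPM in mice 477 and 478 and 7.90 to 12.9 CPM after DMSO. Its log2 fold change was 3.63 ± 0.79 (edgeR adjusted p = 0.0194), and 1.84 without mouse 476. The cathepsin genes Ctss and Ctsk rose by 2.59 ± 0.65 and 1.09 ± 0.29 (edgeR adjusted p = 0.0284 and 0.0311), and Mmp2 (gelatinase A) by 1.17 ± 0.26 (edgeR adjusted p = 0.0185). Ctss was also far higher in mouse 476, at 922 CPM against 174 and 203 CPM in mice 477 and 478. With 1 mouse left out its log2 fold change was 1.39 to 3.01, and it passed in 3 of 7 fits. None of the 5 passed the threshold without mouse 482, 1 did without mouse 483, and 3 did without mouse 481, 476 or 478. Macrophage markers, which summed to 89.6 to 217 CPM after DMSO and 305 to 651 CPM after ABT-263, were also highest in mouse 476, and their part in the protease values was not tested. Mmp7 was listed at 0 in every mouse, and Elane and Ctsg (neutrophil elastase and cathepsin G) were too low to be tested. Of the 3 genes of the elastin receptor complex, which binds elastin fragments, 0 were higher and 0 lower by edgeR, by DESeq2 and at an unadjusted p-value under 0.05 (median log2 fold change 0.21).

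**Figure D5:**
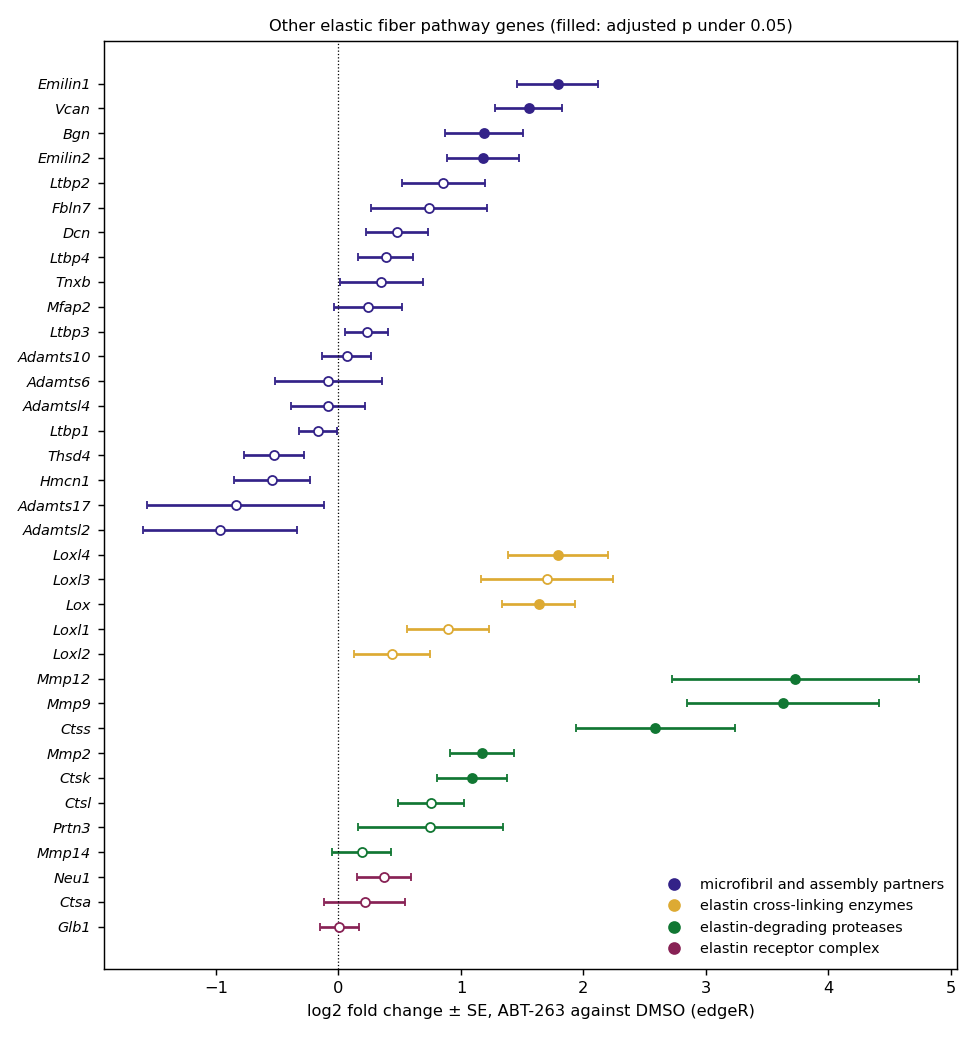
log2 fold change ± SE (ABT-263 against DMSO, edgeR, 3 against 4 mice) of the tested genes that assemble with, cross-link, degrade or sense elastic fibers, colored by list, with filled points for an adjusted p-value under 0.05. Filled points are found to the right of 0 alone, for 4 of 19 assembly partners, 2 of 5 cross-linking enzymes and 5 of 8 proteases, and the elastin receptor complex has none. Of all genes tested, 12.4% were higher and 11.7% lower.

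The genes whose expression over the 7 mice ran closest to elastin and to Fbn1 were sought among all other genes tested with a mean of at least 1 CPM. For Eln they were Rap1gap (Pearson r = 0.98), Tmem216 (0.96) and Sdr16c6 (0.95), with log2 fold changes of 0.02, 0.07 and 0.11 (edgeR adjusted p = 0.943, 0.798 and 0.811). For Fbn1 they were Apba1 (0.99) and the collagen genes Col5a1 (0.98) and Col6a3 (0.97), and both collagen genes were higher after ABT-263, with log2 fold changes of 1.203 ± 0.29 and 1.05 ± 0.26 (edgeR adjusted p = 0.0231 and 0.0266). These are the highest of many correlations over 7 libraries that share their treatment groups and their differences in depth, and they serve as a description.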

How the data were processed

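Dorsal skin RNA from 7 mice, 1 library each, was grouped by the treatment in the labels (4 DMSO, 3 ABT-263), which name no batch. STAR was used by the authors to align the reads (mm10), and featureCounts to assign proper pairs with a unique alignment to Ensembl genes by strand. Mitochondrial genes were left out by the authors. The submitters' processing notes list STAR 2.7.9a, Subread 1.6.2, FastQC 0.11.7 and DESeq2 1.23.10. The deposited counts carry no normalization or filter. The authors also deposited values from a variance-stabilizing transformation, close to a log2 scale, which served here for 1 alternative.

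Counts were normalized with TMM and tested with the quasi-likelihood test of edgeR 4.0.16 (R 4.3.3, filterByExpr, robust, two-sided, Benjamini-Hochberg over all 17959 genes tested, threshold 0.05). SE is the absolute log2 fold change divided by the square root of F. Ratios were compared by an exact two-sided permutation test over mice on the size of the difference (scipy 1.17.1). Correlations used log2 CPM with a prior count of 2. Symbols, positions and exon lengths came from GENCODE M21 (GRCm38, the assembly also called mm10), which held 55190 of the 55450 identifiers, and 10 tested genes had no entry. That release is not the one the authors counted with. A hair follicle marker, Krt85, had no match. Scripts were tested on simulated data.

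The elastic fiber genes, pathway lists and marker lists were chosen with earlier results of these data known. Named genes are all 10 elastic fiber genes, pathway genes past the threshold, Mfap2, Lox, Loxl1, Ltbp4, Emilin1 and Mmp12 whatever their result, and the 3 genes closest to Eln and to Fbn1. Other genes of the lists are given as counts. Fbln7, Hmcn1 and Ctsl were named after their values were seen, and Mmp7, Elane and Ctsg because they were not tested.

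The test was repeated with the Wald test of DESeq2 1.42.0 and, in edgeR, with the size factors of DESeq2, every gene with a count, at least 10 counts in every library, protein-coding genes, removal of length and GC trends (mgcv 1.9.3), counts thinned to the smallest library, limma 3.58.1 on the authors' log2-scale values, and leaving out each mouse. Leaving out mice 481 and 478 together was added after the data were seen. Mice are the replicates, so errors include variation between animals. Other measurements of the study were not analysed here.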

Additional observations from a re-analysis of the deposited data

Results flagged for a closer look

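Of 40 measures examined in the 4 DMSO mice (a gene's CPM, a list's sum or a ratio), 3 had 1 mouse whose distance to its nearest neighbour took up more of the group's range than Dixon's critical value for 4 samples. About 1 in 20 such groups, here 2 measures, would be marked by chance. Groups of 3, as the ABT-263 mice are, were not examined.

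Fbn1 was lowest in DMSO mouse 481, with 31.9 CPM against 78.4 to 87.1 CPM in the other DMSO mice, a gap of 0.841 of the range. Without this mouse the log2 fold change of Fbn1 was 1.07, with an edgeR adjusted p-value of 0.0501.

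The summed hair follicle markers were highest in the same mouse, at 2058 CPM against 8.91 to 11.2 CPM, a gap of 0.999 of the range. ABT-263 mouse 478, which had the highest value of 8 of the 10 elastic fiber genes in its group, also had the highest hair follicle sum there (396 CPM, against 0.501 and 2.50 CPM), whereas mouse 481 had the lowest DMSO value of 9 of them. The part of hair follicle content in the elastic fiber values was not tested.

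The log2 ratio of Fbln1 to the summed fibroblast markers was highest in DMSO mouse 480, at -4.72 against -5.02 to -4.98, a gap of 0.855 of the range.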

How the results depend on the processing

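Fbln2 and Fbln5 passed the edgeR threshold with each mouse left out, at log2 fold changes of 1.74 to 2.29 and 1.22 to 1.46. Leaving out 1 mouse gave 0.90 to 1.54 for Fbn1 (1 of 7 fits past the threshold), 0.80 to 1.19 for Efemp2 (2 of 7), -1.13 to -0.53 for Fbn2, 0.30 to 0.58 for Fbln1 and 0.54 to 0.98 for Efemp1 (1 of 7 each), and -0.29 to 0.52 for Eln, 0.12 to 0.83 for Mfap4 and -0.0057 to 0.34 for Mfap5 (none). Elastic fiber genes called higher then numbered 2 to 4 and lower 0 to 1. Assembly partners called higher numbered 2 to 4, cross-linking enzymes 1 to 3 and proteases 0 to 5, and genes called among all genes tested 1735 to 4169 (850 to 2286 higher, 771 to 2104 lower). Relative to fibroblast markers, the differences of Efemp1 and Mfap4 changed sign, at -0.34 to 0.24 and -0.37 to 0.17.

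Without mice 481 and 478 together, edgeR called 0 genes over the whole table (0 higher, 0 lower), and so 0 in each list, where 5185 of 18170 genes had an unadjusted p-value under 0.05 and DESeq2 called 2876. Log2 fold changes were then -0.57 for Eln, -0.14 for Mfap4, -0.10 for Mfap5 and -0.0068 for Mfap2, against positive values with all mice, and 0.68 for Fbn1, 1.59 for Fbln2, 1.16 for Fbln5 and 0.92 for Efemp2, no longer past the threshold.

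Testing every gene with a count called 2 elastic fiber genes and 2 proteases higher and gave 1.35 for Fbn1 and 1.04 for Efemp2, both then short of the threshold. DESeq2 called 4 cross-linking enzymes and Efemp1 (0.71) higher. Efemp2 was also short of the threshold with DESeq2's size factors (1.02), protein-coding genes only (0.98), length and GC trends removed (0.92) and thinned counts (0.99). The causes were not tested. Over all results and alternatives other than single mice left out, 25 values lost the threshold, 2 gained it, 10 counts moved by over 1.5 times and the 4 log2 fold changes named changed sign. The median over all genes tested went from 0.0022 to -0.07 with length and GC trends removed. No paired analysis was possible because the groups share no replicate numbers. Of the 10 genes, Fbn2 rests on the fewest read pairs (58 to 200 per library).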

Other observations

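Per kilobase of exon, the elastic fiber genes summed to 73.5 to 167 CPM per kilobase in DMSO mice and 186 to 293 in ABT-263 mice. Fbln2 made up 7.11% to 9.07% of that sum in DMSO mice and 22.1%, 14.4% and 20.2% in ABT-263 mice 476 to 478, so its share was higher in every ABT-263 mouse. Elastin held 11.47% to 22.4% after DMSO and 5.57%, 15.9% and 14.4% after ABT-263, and only mouse 476 lay outside the DMSO range. The 5 fibulins together held 36.1% to 56.4% after DMSO and 67.3%, 49.8% and 48.5% after ABT-263, and again only mouse 476 lay outside it. These shares were computed after the values of the single genes were seen and were not tested.

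ABT-263 mouse 476 thus had another pattern than the other ABT-263 mice. It had the lowest elastin (91.8 CPM) and the highest Efemp2 (124 CPM), Emilin1 (78.7 CPM), Lox (146 CPM), Mmp9 (316 CPM) and Mmp12 (108 CPM) of the 3. Mouse 477 had the lowest value of its group for 7 of the 10 elastic fiber genes.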
